A study of Mytilus galloprovincialis with 8 samples.

Results

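Probes with opposite exposure ratios in digestive gland and gill were taken from a 2-colour microarray study of the Mediterranean mussel, Mytilus galloprovincialis, after contact with the toxic dinoflagellate Prorocentrum lima. A probe was a member when its log2 ratio of exposed over control lay beyond 0.5 in both replicates of digestive gland and beyond 0.5 with the opposite sign in both replicates of gill. Of the 51300 probes on the array, 39 met this rule (0.076%). In 33 of them (0.0643% of all probes) the signal fell in digestive gland and rose in gill, and in 6 (0.0117%) it rose in digestive gland and fell in gill. The members were chosen by these exposure ratios, so the size and sign of the ratios are given below as a description and were not tested.

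Exposed mussels had been in contact with P. lima for 24 h (the sample records give 200 cells/ml, the text of the study gives the same number per litre) and control mussels had not. Digestive gland and gill of both were hybridized, each RNA being a pool of 5 mussels, with exposed and control RNA on the same array in different dyes. Every hybridization was repeated with the dyes exchanged. An array and its dye swap hold the same pools and made 1 biological replicate, so that n = 2 per tissue and each probe had 4 replicate values from 8 arrays. All values come from pooled tissue, and in such RNA fewer cells of a type and less RNA per cell cannot be told apart.

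P. lima makes okadaic acid, the main toxin of diarrhetic shellfish poisoning, which inhibits the serine/threonine phosphatases PP1 and PP2A. Mussels take in the cells by filtering sea water over the gill, the respiratory and food-collecting surface. The digestive gland, the site of intracellular digestion and of much detoxification, is where okadaic acid mainly accumulates. The comparison asks which transcripts changed in opposite directions in these organs of the same kind of animal.

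The probes carry contig names of the cDNA libraries made for the array and no gene names. All these libraries were made from digestive gland, and the study states that the array could lack gill-specific transcripts. Counts in gill cover only the transcripts on the array. None of the probe or contig names matched the reference gene table of the species used here, and the files hold no probe sequence. The members are therefore described by contig, expression and position in the data, without gene roles, and the labelled tissues could not be checked against marker genes. Spots well above background in both channels made up 51.7 to 57.4% of a digestive gland array and 37 to 39.6% of a gill array. No spot was saturated. The dye of 1 digestive gland array, the dye swap of replicate 2, is named Cy6 in the records and was read as Cy5.

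Opposite change was the rarer outcome among probes that changed in both tissues. The signal rose in both replicates of both tissues for 258 probes and fell in both for 87. Counted in digestive gland whatever the change in gill, 2751 probes (5.36%) rose and 1663 (3.24%) fell by more than 0.5 in both replicates. In gill, counted in the same way, 1307 (2.55%) rose and 159 (0.31%) fell. The 33 probes falling in digestive gland and rising in gill were 1.98% of the digestive gland fallers and 2.52% of the gill risers. The 6 probes with the reverse pattern were 0.218% of the digestive gland risers and 3.77% of the gill fallers. By comparison, the 87 probes falling in both tissues were 54.7% of the gill fallers.

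**Figure D1:**
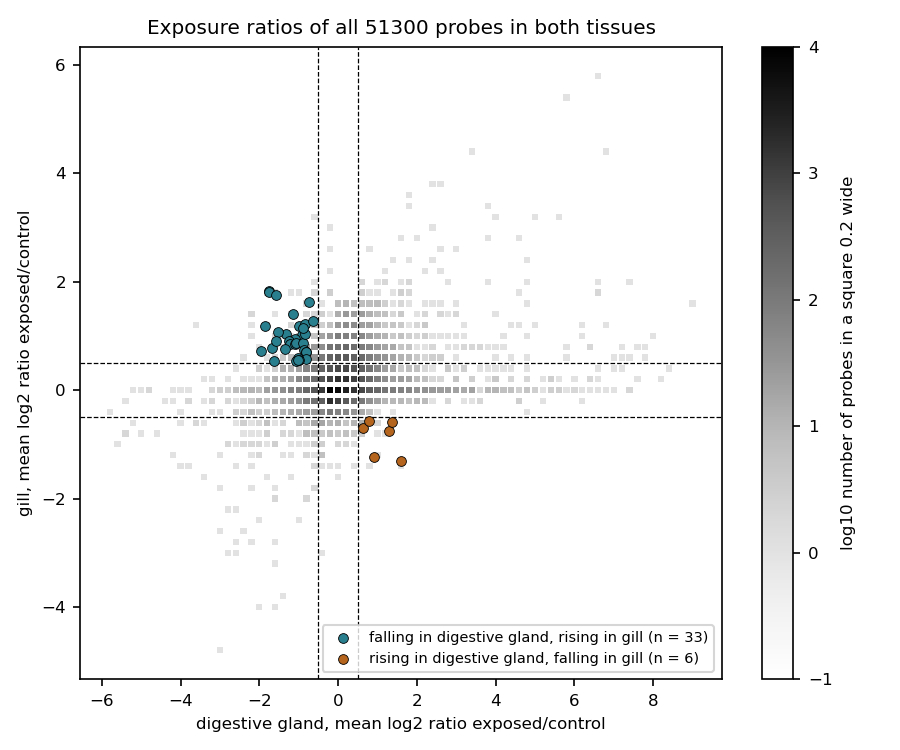
Mean log2 ratio of exposed over control in digestive gland (x axis) and gill (y axis) for all 51300 probes, counted in squares of grey, with the 33 probes falling in digestive gland and rising in gill in blue-green and the 6 with the reverse pattern in brown. Dashed lines mark 0.5, and both groups of members lie in the sparsely filled corners, whereas the 258 and 87 probes of shared direction lie in the other corners.

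Choice by a single replicate number gave longer lists with modest overlap. Replicate 1 alone chose 210 probes falling in digestive gland and rising in gill, replicate 2 alone chose 282, and 33 were in both (15.7% and 11.7%). For the reverse pattern the lists held 40 and 38 probes, of which 6 were shared (15% and 15.8%). Among probes rising in both tissues the overlap was 57.7% of the list of replicate 1 and 8.08% of that of replicate 2.

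Brightness and dye moved with the ratios and touch every value below. With only the array median removed, arrays of 1 tissue with the same dye on the exposed RNA correlated at 0.768 to 0.972 in digestive gland and 0.506 to 0.71 in gill, whereas an array and its own dye swap correlated at -0.188 to 0.229 and 0.0316 to 0.156. After loess within each array (a correction of the ratio for brightness) an array and its swap correlated at 0.884 to 0.91 and 0.583 to 0.785. These are correlations across probes, which are not independent. Averages of array and swap correlated between replicates at 0.806 in digestive gland and 0.433 in gill with the median removed, and at 0.914 and 0.491 after loess.

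In the averages, the median ratio of all probes rose with brightness in replicate 2 of both tissues. In the 19th of 20 equal classes of brightness it was 0.43 in digestive gland and 0.65 in gill, whereas replicate 1 had -0.10 and 0.08 in the same classes. The members were bright. All 39 were well above background in at least 1 channel on all 8 arrays, against 40.8% of all probes, and 24 of the 33 digestive gland fallers were in the top 3 classes of brightness there.

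**Figure D2:**
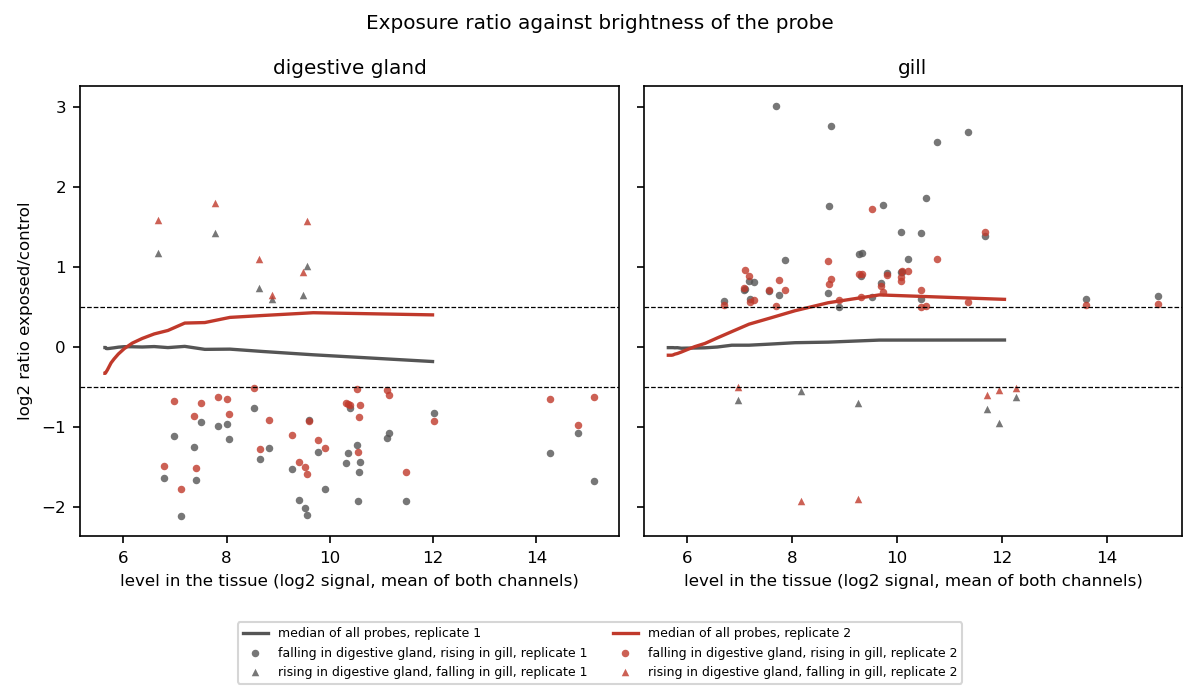
Log2 ratio of exposed over control (y axis) against the level of the probe in the tissue (x axis, log2 signal averaged over both channels), for digestive gland and gill. Lines give the median of all probes in 20 classes of brightness, points the members, grey replicate 1 and red replicate 2. The red line in gill passes 0.5 among bright probes, near many of the gill risers.

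The 33 probes falling in digestive gland and rising in gill had mean ratios of -1.95 to -0.64 in digestive gland (median -1.08) and of 0.54 to 1.83 in gill (median 0.90). In digestive gland, replicate 1 ran from -2.11 to -0.77 and replicate 2 from -1.78 to -0.51, and the fall was larger in replicate 1 for 31 of the 33. In gill, replicate 1 ran from 0.50 to 3.01 and replicate 2 from 0.50 to 1.73. In 1 of the 33 all 4 values were beyond 1. Across these 33 probes the replicates correlated at 0.788 in digestive gland and -0.0408 in gill, which describes the chosen probes and carries no test.

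The highest ranked member, by the smallest of its 4 ratios, was the probe of contig cDNA_MGC_c16629 (CUST_16561_PI427859148), named for the library of control mussels. Its level in digestive gland was 12.45 and 12.23 in the control pools and 10.53 and 10.67 in the exposed pools (log2 signal scaled to common quantiles). In gill it was 10.10 and 9.60 in the control pools and 12.66 and 10.699 in the exposed pools. Exposed and control pools did not overlap in either tissue, and the exposed gill pool of replicate 1 stood highest of the gill pools. The ratios were -1.93 and -1.56 in digestive gland (mean -1.74 ± 0.26, SD, n = 2; 3.35-fold lower) and 2.56 and 1.10 in gill (mean 1.83 ± 1.03; 3.56-fold higher). It was the only member beyond 0.5 on each of the 8 arrays with the array median removed. After loess its gill ratios were 2.45 and 0.49, and it was no longer a member.

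The next contigs in rank had gill values that lay close together with the array median removed, but not after loess. The ratios of mgt200.forw_c8375 (CUST_42218_PI427859148), from the SSH library, were -0.92 and -0.92 in digestive gland and 1.09 and 0.94 in gill. Those of cDNA_MGT.90_c98 (CUST_17130_PI427859148) were -1.27 and -0.91, and 0.94 and 0.94. For cDNA_MGT.90_c17217 (CUST_30650_PI427859148) they were -1.52 and -1.11, and 1.17 and 0.91. Last of these, cDNA_MGT.90_c14493 (CUST_28321_PI427859148), fell by 1.32 and 1.17 and rose by 0.92 and 0.89. The mean changes of these contigs were 1.88 to 2.49-fold in either tissue. After loess the gill ratios were, in the same order, 0.99 and 0.33, 0.83 and 0.33, 1.07 and 0.34, and 0.83 and 0.28. None of these contigs stayed a member. The averages also hide a dye gap: mgt200.forw_c8375 had digestive gland ratios of -0.28 and -0.22 with exposed RNA in Cy5. In the dye swaps they were -1.55 and -1.62.

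A second pattern was a gill change that rested mainly on replicate 1 already with the array median removed. For cDNA_MGT.90_c3776 (CUST_20664_PI427859148) the digestive gland ratios were -2.02 and -1.51 and the gill ratios 2.76 and 0.85. The probe of mgt200.forw_c20567 (CUST_51240_PI427859148) gave -1.66 and -1.51 in digestive gland and 3.01 and 0.51 in gill, and cDNA_MGC_c3403 (CUST_3403_PI427859148) gave -0.77 and -0.73, and 2.69 and 0.56. In all of these the exposed gill pool of replicate 1 stood apart. The level of mgt200.forw_c20567 was 9.996 in that pool against 7.16 in the exposed pool of replicate 2 and 6.99 and 6.65 in the gill controls. Its gill control was well above background on 1 of the 4 arrays.

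The remaining members of the 12 highest ranked were cDNA_MGC_rep_c7918, cDNA_MGC_c4490, cDNA_MGC_rep_c6871, cDNA_MGC_rep_c6875, cDNA_MGC_rep_c8396 and cDNA_MGT.90_c1852. The ratios of cDNA_MGC_c4490 (CUST_4490_PI427859148) were -1.92 and -1.44 in digestive gland and 0.80 and 0.76 in gill. Those of cDNA_MGC_rep_c6875 (CUST_6875_PI427859148) were -1.77 and -1.26, and 1.43 and 0.72. Those of cDNA_MGT.90_c1852 (CUST_18806_PI427859148) were -1.64 and -1.49, and 1.09 and 0.71. In all of these the fall in digestive gland exceeded the rise in gill on average. After loess the gill ratios of cDNA_MGC_c4490 were 0.70 and 0.16. Those of cDNA_MGC_rep_c6875 were 1.32 and 0.11, and those of cDNA_MGT.90_c1852 were 1.03 and 0.36. None of these contigs stayed a member after loess. Of the 12, cDNA_MGC_rep_c8396 (CUST_8395_PI427859148) had the largest mean fall in digestive gland of all 33, at -1.95 ± 0.23 (3.86-fold lower). Its level there was 8.19 and 8.0 in the control pools and 6.08 and 6.22 in the exposed pools. In gill it was 6.87 and 6.58 in the controls and 7.58 and 7.32 in the exposed pools. The pools did not overlap in either tissue, and the control signal in gill was well above background on 3 of 4 arrays. After loess the gill ratios of cDNA_MGC_rep_c8396 were 0.69 and 0.499, and it was no longer a member.

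**Figure D3:**
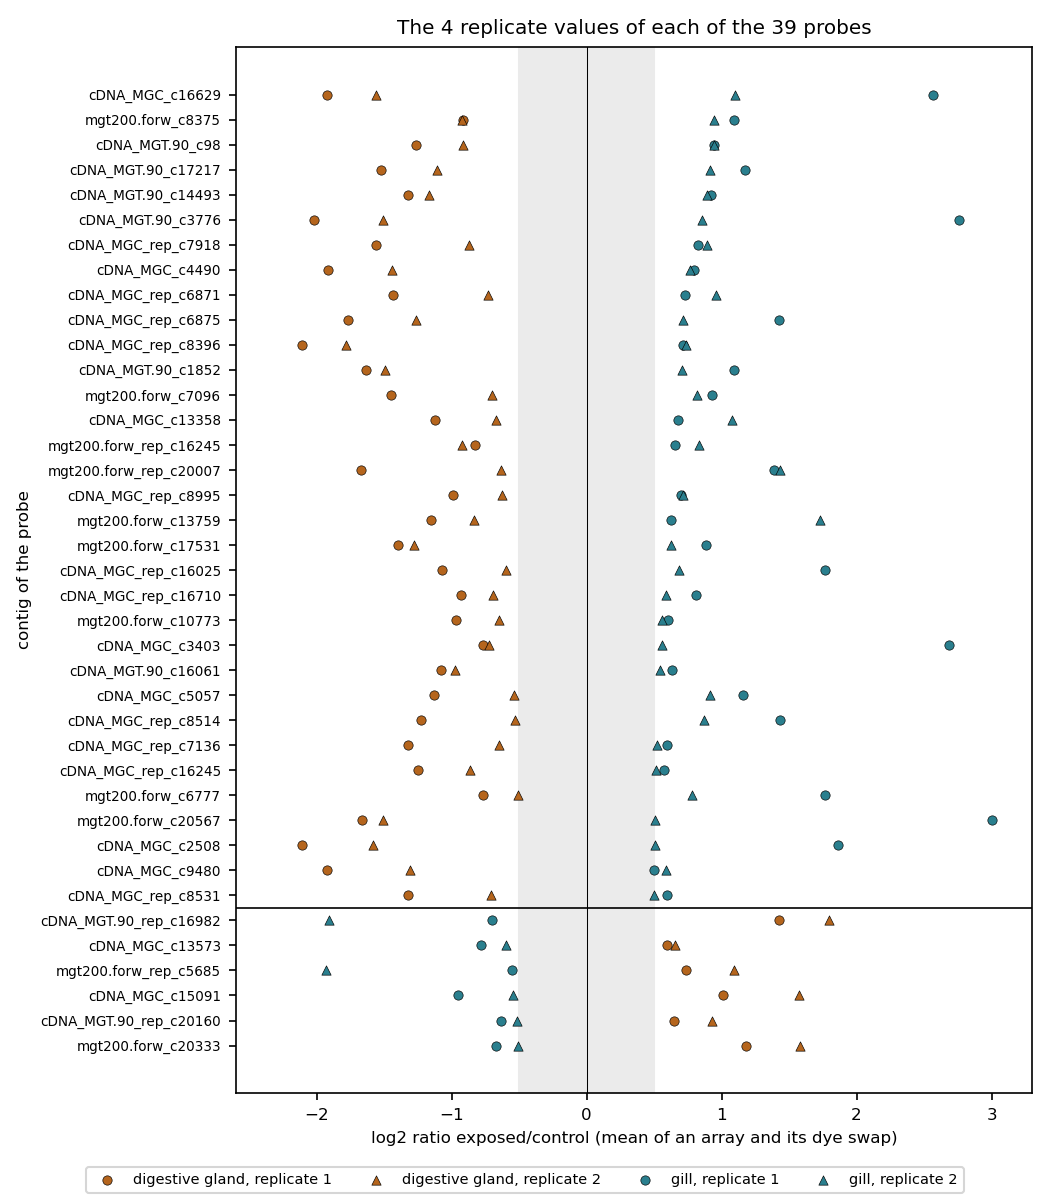
Log2 ratio of exposed over control (x axis) in replicate 1 (circles) and replicate 2 (triangles) of digestive gland (brown) and gill (blue-green) for each of the 39 members, by contig (y axis). The 33 probes falling in digestive gland and rising in gill are above the line and the 6 with the reverse pattern below it, each in order of rank, and the grey band spans -0.5 to 0.5. The gill circles of 4 of the 33 lie beyond 2.5.

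Exposed and control pools did not overlap for any of the 33 in either tissue, which the rule largely fixes. Over all probes they did not overlap for 67.7% in digestive gland and 43.2% in gill. On 17 of the 33 probes all 8 single arrays pointed in the direction of the rule, and at the other end cDNA_MGT.90_c16061 (CUST_29645_PI427859148) and cDNA_MGC_rep_c7136 (CUST_7136_PI427859148) did so on 4 of 8. The ratios of cDNA_MGT.90_c16061 on the digestive gland arrays were 0.31 and 0.35 with exposed RNA in Cy5 and -2.46 and -2.30 in the dye swaps. Its averages of -1.08 and -0.98 were therefore made of arrays of opposite sign.

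Loess changed the membership of these 33 more than their direction. With it 18 probes met the rule for this direction, of which 5 were among the 33, and with normexp background correction as well 15 did, of which the same 5 were among the 33. In digestive gland the fall was kept: the 33 ratios ran from -2.08 to -0.66 in replicate 1 and from -2.00 to -0.87 in replicate 2, all beyond 0.5. In gill replicate 1 they ran from 0.42 to 2.91 and 30 of 33 stayed beyond 0.5. In gill replicate 2 they ran from -0.13 to 1.14 with a median of 0.33, and 5 stayed beyond 0.5. All 4 signs were kept in 28 of the 33.

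The values no longer beyond 0.5 were thus 28 in gill replicate 2 and 3 in gill replicate 1, those of cDNA_MGC_c9480 (0.42), cDNA_MGC_rep_c7136 (0.47) and cDNA_MGC_rep_c8531 (0.49). The part of brightness in this was not tested. Before loess, 6 of the 33 had a ratio in gill replicate 2 no higher than the median of all probes of their class of brightness, and 6 exceeded that median by more than 0.5. In the other 3 replicates every one of the 33 lay beyond the median of its class in the direction of the rule, which the rule fixes. No class median was below -0.33 in digestive gland or above 0.09 in gill replicate 1. By the loess values above, the fall in digestive gland was given by either normalization, and the size of the rise in gill replicate 2 was not.

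**Figure D4:**
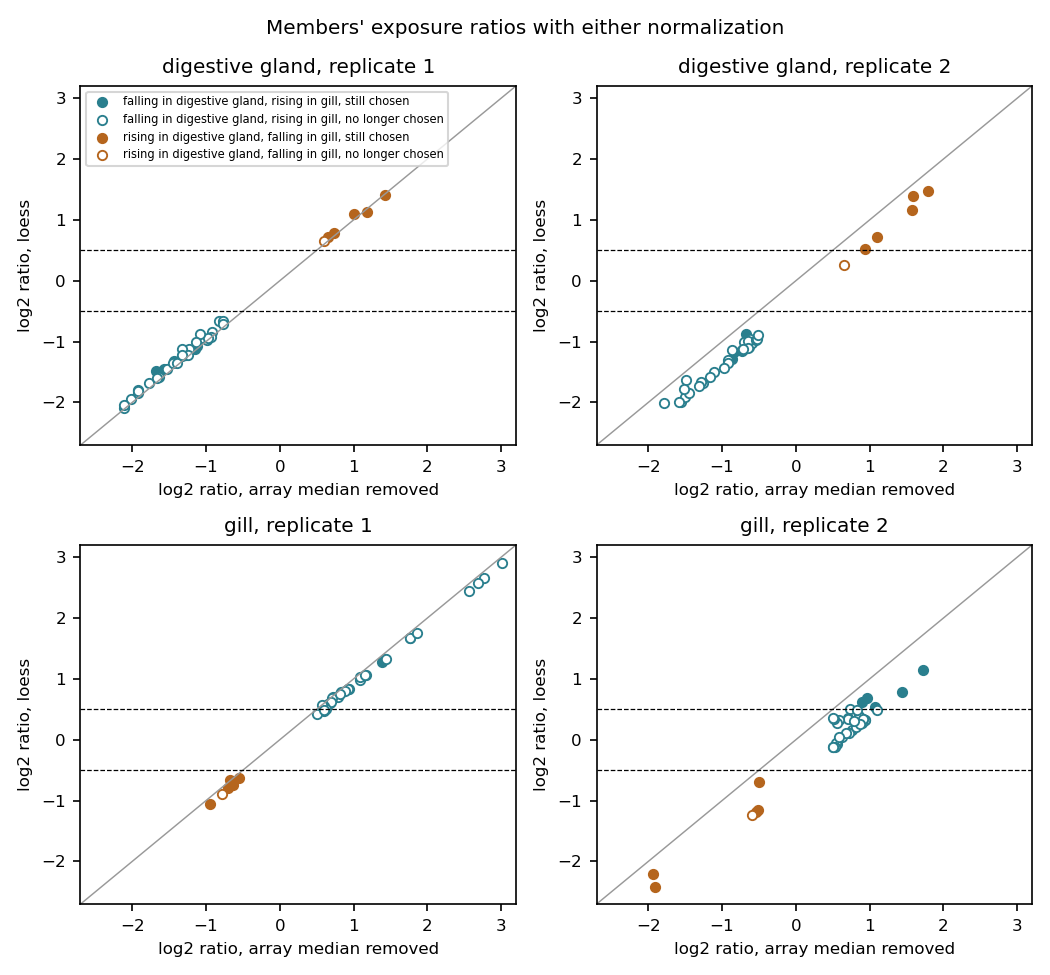
Log2 ratio of exposed over control of the 39 members with the array median removed (x axis) and with loess within each array (y axis), for each tissue and replicate. Filled points are still chosen after loess (5 of 33 in blue-green, 5 of 6 in brown), open points are not, dashed lines mark 0.5 and the grey line equality. In gill replicate 2 most open blue-green points lie between -0.13 and 0.5 after loess.

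The choice also depended on the array named Cy6. Without it, digestive gland replicate 2 rests on 1 array and 1 dye orientation, and 9 of the 33 remained with the median removed, none of them among the 5 kept by loess. With loess and without that array the rule gave 17 probes of this direction, the same 5 of the 33 among them.

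The 5 probes that stayed members after loess were cDNA_MGC_rep_c7918, cDNA_MGC_rep_c6871, cDNA_MGC_c13358, mgt200.forw_rep_c20007 and mgt200.forw_c13759, a choice made after their values had been seen. The level of cDNA_MGC_rep_c7918 (CUST_7917_PI427859148) was 11.26 and 11.07 in the digestive gland controls and 9.70 and 10.20 in the exposed pools, and in gill 6.82 and 6.68 against 7.65 and 7.57. For cDNA_MGC_rep_c6871 (CUST_6871_PI427859148) it was 11.22 and 11.02 against 9.78 and 10.29, and in gill 6.79 and 6.596 against 7.52 and 7.56. The pair differed by a root mean square of 0.074 over the 8 pool levels, the closest of all pairs of members, and the next closest pair differed by 0.233. Whether both probes target 1 transcript was not tested, because the files hold no sequences. After loess the ratios were -1.46 and -1.29 in digestive gland and 0.79 and 0.62 in gill for cDNA_MGC_rep_c7918, and -1.33 and -1.15, and 0.70 and 0.69 for cDNA_MGC_rep_c6871.

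The brightest of the 5 was mgt200.forw_rep_c20007 (CUST_50968_PI427859148). Its level was 15.83 and 15.56 in the digestive gland controls and 14.16 and 14.93 in the exposed pools, and in gill 11.17 and 10.80 against 12.56 and 12.24. The ratios were -1.67 and -0.63 in digestive gland (mean -1.15 ± 0.74) and 1.39 and 1.43 in gill (mean 1.41 ± 0.03; 2.66-fold higher), and loess left them at -1.48, -1.08, 1.28 and 0.78. The digestive gland replicates were further apart than the gill replicates, and 6 of the 8 arrays had the sign of the rule. On the digestive gland arrays the ratios were 0.11 and 0.54 with exposed RNA in Cy5 and -3.45 and -1.80 in the dye swaps. The mean fall there was thus made of arrays of opposite sign, a spread that its SD leaves out.

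With quantile scaling the other 2 of the 5 had higher levels in gill. The level of cDNA_MGC_c13358 (CUST_13339_PI427859148) was 7.56 and 7.29 in the digestive gland controls, 6.44 and 6.62 in the exposed pools, 8.39 and 8.11 in the gill controls and 9.07 and 9.19 in the exposed pools. That of mgt200.forw_c13759 (CUST_46277_PI427859148) was 8.62 and 8.46, 7.47 and 7.63, 9.15 and 8.72, and 9.77 and 10.45 in the same order. Its gill ratio was larger in replicate 2 (1.73) than in replicate 1 (0.62), the reverse of the pattern in cDNA_MGT.90_c3776. After loess it was 1.14 and 0.54.

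The 6 probes rising in digestive gland and falling in gill had mean ratios of 0.62 to 1.61 in digestive gland (median 1.10) and of -1.30 to -0.57 in gill (median -0.72). In contrast to the other direction, 5 of the 6 stayed members after loess, all 4 signs were kept in 6 of 6, and the median gill ratio moved from -0.72 to -1.10. All 6 lay beyond the median of their class of brightness in all 4 replicates, which the rule fixes. No class median was above 0.43 in digestive gland or below -0.10 in gill. With loess 11 probes met the rule for this direction. The digestive gland ratio was larger in replicate 2 than in replicate 1 in all 6. All 8 single arrays pointed in the direction of the rule for 2 of the 6. It was 7 of 8 for cDNA_MGC_c15091, 6 for mgt200.forw_rep_c5685, and 5 for cDNA_MGC_c13573 and cDNA_MGT.90_rep_c20160. In digestive gland cDNA_MGC_c13573 had 1.32 and 1.34 with exposed RNA in Cy5 and -0.12 and -0.04 in the dye swaps. In gill cDNA_MGT.90_rep_c20160 had 0.17 and 0.61, and -1.44 and -1.65 in the dye swaps. These averages were thus made of arrays of opposite sign.

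The highest ranked, cDNA_MGT.90_rep_c16982 (CUST_30446_PI427859148), met the rule under all 10 alternative ways of processing the arrays and was the only one of the 39 to do so. Its level in digestive gland was 7.03 and 6.93 in the control pools and 8.46 and 8.72 in the exposed pools. In gill it was 10.11 and 9.71 in the controls and 9.41 and 7.80 in the exposed pools. The pools did not overlap in either tissue, and the exposed gill pool of replicate 2 stood lowest of the gill pools. The ratios were 1.42 and 1.79 in digestive gland (mean 1.61 ± 0.26; 3.05-fold higher) and -0.70 and -1.91 in gill (mean -1.30 ± 0.85; 2.47-fold lower), and all 8 arrays had the sign of the rule.

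A like gap between the gill replicates was seen in mgt200.forw_rep_c5685 (CUST_40448_PI427859148). Its level was 8.26 and 8.06 in the digestive gland controls and 8.999 and 9.16 in the exposed pools. In gill it was 9.14 and 8.47 in the controls and 8.59 and 6.54 in the exposed pools, so that the exposed pool of replicate 1 lay above the control pool of replicate 2. It was the only member whose exposed and control pools overlapped in a tissue. Its exposed signal in gill was well above background on 2 of 4 arrays.

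With quantile scaling the brightest of the 6 in gill were cDNA_MGC_c15091, cDNA_MGT.90_rep_c20160 and cDNA_MGC_c13573. The level of cDNA_MGC_c15091 (CUST_15043_PI427859148) was 9.08 and 8.75 in the digestive gland controls, 10.09 and 10.32 in the exposed pools, 12.47 and 12.16 in the gill controls and 11.52 and 11.61 in the exposed pools. That of cDNA_MGT.90_rep_c20160 (CUST_33083_PI427859148) was 9.15 and 9.03, 9.80 and 9.97, 12.58 and 12.54, and 11.95 and 12.03. That of cDNA_MGC_c13573 (CUST_13547_PI427859148) was 8.66 and 8.47, 9.26 and 9.12, 12.11 and 12.02, and 11.33 and 11.43. With quantile scaling the gill pools of each stayed above its digestive gland pools, exposed or not. The last was the member lost with loess, which left its second digestive gland ratio at 0.26.

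The dimmest of the 6 was mgt200.forw_c20333 (CUST_51120_PI427859148). It had levels of 6.08 and 5.90 in the digestive gland controls and 7.25 and 7.48 in the exposed pools, and of 7.24 and 7.29 in the gill controls and 6.57 and 6.79 in the exposed pools. The ratios were 1.18 and 1.58, and -0.67 and -0.51. All 8 arrays had the sign of the rule, and, with quantile scaling, the order of the tissues in the control pools was turned in the exposed pools.

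**Figure D5:**
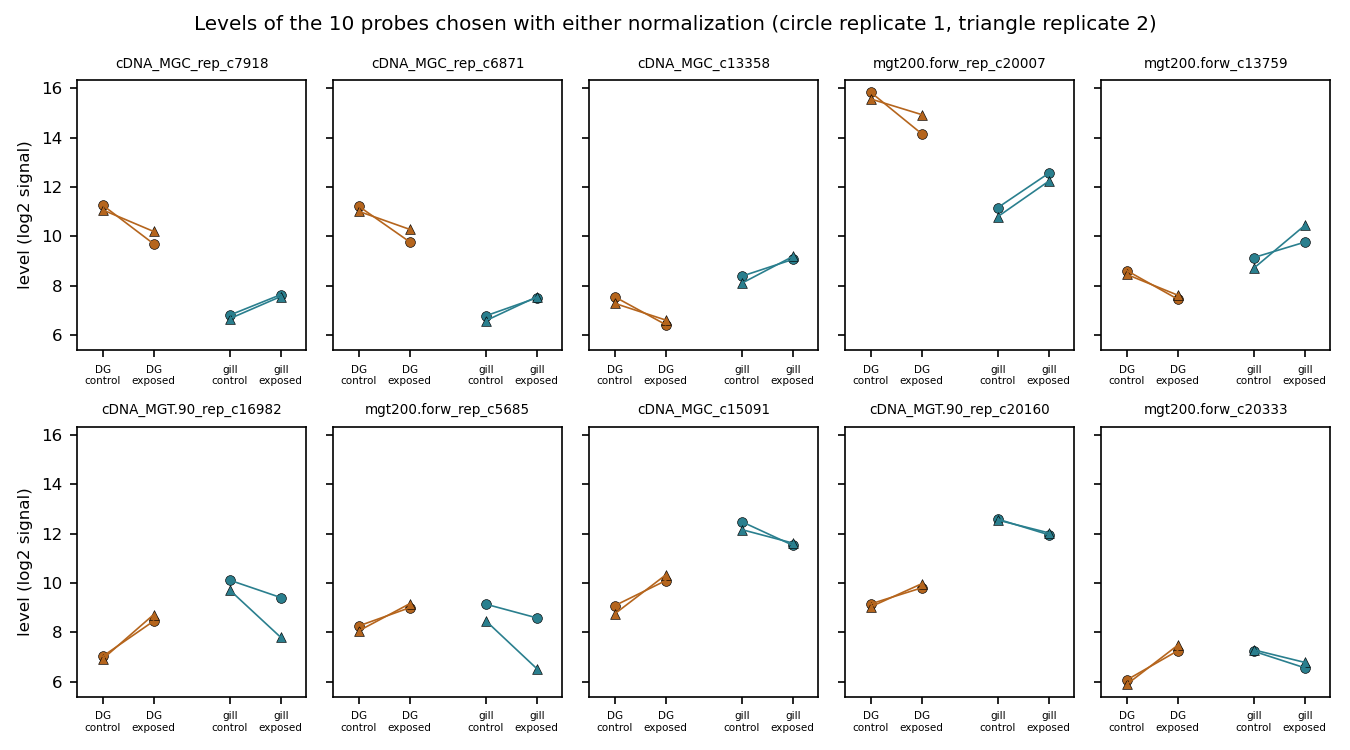
Level of the 10 members that met the rule with either normalization (y axis, log2 signal scaled to common quantiles) in the control and exposed pools of digestive gland (DG, brown) and gill (blue-green), with lines joining the pools of replicate 1 (circles) and replicate 2 (triangles). The upper row falls in digestive gland and rises in gill, the lower row the reverse, and cDNA_MGC_c15091 and cDNA_MGT.90_rep_c20160 stay higher in gill in every pool.

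The mean level of both channels was not itself used by the rule. It comes from the same signals, and the median ratio changed with brightness, so the level is not independent of the choice of members. It was tested between the tissues with limma over all probes, where 19.8% of the probes were higher in digestive gland and 30.9% in gill (adjusted p under 0.05). Of the 6 probes rising in digestive gland and falling in gill, 4 were higher in gill, none was higher in digestive gland, and 5 had an unadjusted p under 0.05, as did 56% of all probes. The median difference was -1.93, against -0.06 for all probes. The members are bright, however, and among the 20916 probes well above background in at least 1 channel on all 8 arrays, fitted alone, 62.8% were higher in gill and the median difference was -0.51. In that fit 5 of the 6 were higher in gill, a share that rests on 6 probes. The levels of cDNA_MGC_c13573, cDNA_MGT.90_rep_c20160 and cDNA_MGC_c15091 were 7.18, 6.90 and 5.21-fold higher in gill (log2 differences of -2.84 ± 0.07, -2.79 ± 0.03 and -2.38 ± 0.06, SE; adjusted p = 0.000234, 0.000117 and 0.000217). That of mgt200.forw_c20333 was 1.23-fold higher in gill (adjusted p = 0.0278). The sizes, and for some the order of the tissues, rested on quantile scaling. In the order named, the log2 differences were -1.90, -1.72, -1.33 and -0.65 with the 75th percentile. With the array median they were -0.84, -0.66, -0.27 and 0.42, and without scaling -0.27, -0.09, 0.30 and 0.98. The count of 4 was 3 with the array median as the scale and 5 with the 75th percentile, and without scaling none was called higher in gill and 2 were called higher in digestive gland.

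The 33 probes of the other direction had no common order of the tissues. With quantile scaling 10 were higher in digestive gland, 7 were higher in gill and 16 did not pass, with a median difference of 0.04 and a range of -1.71 to 4.25. The largest difference was that of mgt200.forw_rep_c16245 (CUST_48147_PI427859148), 19.1-fold higher in digestive gland (4.25 ± 0.06, adjusted p = 0.000126), followed by cDNA_MGC_rep_c6871 (11.02-fold), mgt200.forw_rep_c20007 (10.8-fold) and cDNA_MGC_rep_c7918 (10.4-fold). On the gill side cDNA_MGC_c13358 was 3.28-fold higher (-1.71 ± 0.05, adjusted p = 0.000258) and mgt200.forw_c13759 2.78-fold higher (-1.48 ± 0.06, adjusted p = 0.00047). These counts rested on the scaling: 30 of the 33 were called higher in digestive gland with the array median, where 35.4% of all probes were, and 31 without scaling, where 51.2% were. The order of cDNA_MGC_c13358 and mgt200.forw_c13759 was not fixed either, with log2 differences of -0.51 and 0.10 with the array median and of 0.05 and 0.66 without scaling, whereas mgt200.forw_rep_c16245, cDNA_MGC_rep_c6871, mgt200.forw_rep_c20007 and cDNA_MGC_rep_c7918 were higher in digestive gland under each of the 7 settings of the level. Digestive gland and gill arrays lay in different positions of 1 slide, so that tissue and position cannot be told apart.

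The distance between the tissues changed in both directions. In the control pools digestive gland was above gill in 30 of the 33 by the mean of both pools, and in the exposed pools in 8, while the median difference between the tissues went from 1.11 to -1.02. For the reverse pattern digestive gland was above gill in 0 of the 6 in the controls and in 2 in the exposed pools, with medians of -3.16 and -0.69. By these means the order of the tissues turned in 22 of the 33, the gap narrowed in 8 and it widened in 3 that were already higher in gill in the control pools. Of the 6 with the reverse pattern the order turned in 2 and the gap narrowed in 4. The direction of these shifts follows from the rule, and their start and end points depend on the scaling.

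In a limma fit of the exposure ratios after normexp and loess, 27 of the 39 passed an adjusted p of 0.05 in digestive gland, where 17.8% of all probes did. In gill none of the 39 passed, where 0.0293% of all probes did, while 28 had an unadjusted p under 0.05, as did 14.3% of all probes. The difference of the changes in both tissues passed for 26 of the 39, against 9.71% of all probes. The fit rests on the contrasts that chose the members and has 2 residual degrees of freedom, so nothing is read from these counts. The probe of cDNA_MGC_rep_c7136 had no value in this fit because a spot of it was marked as an outlier.

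By contig name, 18 of the 33 probes falling in digestive gland and rising in gill came from the library of control mussels (54.5%), 6 from that of exposed mussels (18.2%) and 9 from the SSH library (27.3%). The shares among all probes were 33.2%, 37.4% and 29.4%. All these libraries were made from digestive gland and none from gill. The SSH library was enriched for transcripts higher in exposed digestive gland, where these 9 members fell. Among all digestive gland fallers 60.3% were named for the control library, and among all gill risers 30%. The members thus lay nearer to the digestive gland fallers in this share, which is a description. The 6 of the reverse pattern were 2 from each library. The assignment of contig prefixes to libraries is read from the codes of the study and is an inference. Contigs marked as repeats by the assembler made up 13 of the 33 (39.4%) and 3 of the 6, against 27.6% of all probes and 43.5% of the gill risers. Probes of repeat contigs can share signal with related transcripts, and which transcripts each one reports cannot be told here.

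All 39 had contigs of their own. Those spotted more than once agreed closely between spots: 4 of the 33 and 1 of the 6 had 2 spots, and within a replicate the spots of a probe differed by at most 0.099. The widest gap was 0.099, for cDNA_MGC_rep_c7918 in digestive gland replicate 2 (-0.92 and -0.82), and the closest agreement was that of cDNA_MGT.90_c98, where no gap was above 0.057. These gaps were smaller than the median gap between replicates of the 33, 0.39 in digestive gland and 0.23 in gill.

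Near the threshold the membership turned on hundredths. The members nearest inside were cDNA_MGC_rep_c8531 (CUST_8530_PI427859148), with a smallest ratio of 0.501, and cDNA_MGC_c9480 (CUST_9479_PI427859148), with 0.503. Nearest outside were CUST_8256_PI427859148, with digestive gland ratios of -0.60 and -0.50 and gill ratios of 0.50 and 1.26, and CUST_9704_PI427859148, with -1.35 and -0.76, and 1.35 and 0.49. In the reverse direction mgt200.forw_c20333 (0.505) and cDNA_MGT.90_rep_c20160 (0.516) were just inside. Just outside were CUST_24439_PI427859148, with 0.49 and 0.70, and -0.57 and -0.80, and CUST_25298_PI427859148, with 0.48 and 0.56, and -0.79 and -0.51.

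For 1 member a gill signal was only a bound. The control signal of cDNA_MGC_rep_c16245 (CUST_16178_PI427859148) was not well above background on any of the 4 gill arrays, and the exposed signal was at least 1.38-fold higher (levels after loess of 6.95 against a bound of 6.49, where the bound takes the higher of the probe's own signal and the lowest signal well above background). Its digestive gland level fell from 7.95 and 7.86 in the controls to 6.70 and 6.996 in the exposed pools.

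By Euclidean distance over the 4 ratios, the probes most like cDNA_MGC_c16629 on the whole array were the members cDNA_MGT.90_c3776 (distance 0.338) and mgt200.forw_c20567 (0.787), then cDNA_MGT.90_c17492 (CUST_30892_PI427859148; 0.922). The latter was no member because its gill ratios were 1.95 and 0.44. All of them had the larger gill ratio in replicate 1. Most like cDNA_MGT.90_rep_c16982 were mgt200.forw_rep_c5685 (0.989), cDNA_MGT.90_rep_c6569 (CUST_23271_PI427859148; 1.18) and mgt200.forw_c20333 (1.44). The second of these had ratios of 0.80 and 1.10 in digestive gland and of -0.44 and -1.24 in gill, outside the rule by its first gill value.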

How the data were processed

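For each of 8 hybridizations the authors deposited the scanner output of Agilent Feature Extraction 10.7.3.1, with intensities per spot and channel. A deposited table of log2 ratios, with processing not given in the sources used here, served as an alternative. Quality marks (other columns) were used as deposited. The scanner's own log ratios and p-values, in the deposited files, were not used.

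The median intensity minus the local background median (0 at least) plus an offset of 50 was taken per channel for 61657 spots that were not controls. The log2 ratio of exposed over control had the array median removed and was averaged over spots, array and swap. A probe beyond 0.5 in all 4 replicate values, with opposite signs in the tissues, was a member. The level is the mean log2 intensity of both channels, scaled to common quantiles.

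The fits used limma 3.58.1 in R 4.3.3 on the 4 replicate values, with Benjamini-Hochberg adjustment over all probes at 0.05. The exposure fit used normexp (offset 50) and loess, without outlier spots. The fits were tried on simulated data with changes larger than those of most members and no trend with dye or brightness. This does not show how well they find changes like those of the members. P-values measure the spread between these pools only. No depth of sequencing applies, and the number of arrays limits the precision.

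Members and lists were chosen with earlier results of these data known. Named were the 12 members with the largest smallest ratio in each direction (of these also the 6 highest well above background), the 2 nearest to the threshold on each side, those spotted more than once with the widest and closest agreement, and the 3 probes most like the highest ranked. Others are named where a count singles them out, after their values were seen. Groups of members sharing a contig could not be formed. Alternatives changed the offset, background, normalization, threshold, scaling and filters, and left out the Cy6 array and each replicate in turn. Loess combined with leaving out the Cy6 array, and the comparison with all probes changing in a tissue whatever the other did, were added after seeing the data.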

Additional observations from a re-analysis of the deposited data

Results flagged for a closer look

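Both sets were flagged because all replicates of digestive gland moved against all replicates of gill, which is the rule that chose them. They hold 6 probes rising in digestive gland and falling in gill and 33 probes with the reverse pattern. Gill fallers made up 0.218% of the digestive gland risers and 0.31% of all probes. Gill risers made up 1.98% of the digestive gland fallers and 2.55% of all probes. The difference between the tissues was not tested independently, since the members were chosen by it.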

How the results depend on the processing

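Of 897 mean ratios of single members under 14 alternatives, none changed sign, 669 stayed within 1 SD of the replicates and 228 moved further. This tally was partly fixed in advance. With 1 replicate left out the mean is the other replicate, whose sign the rule sets and which always lies within that SD. Single replicate values did change sign: with loess all 4 signs were kept in 28 of the 33. The number of members was less stable. For the 6 probes rising in digestive gland and falling in gill it was 12 with an offset of 25, 2 with an offset of 100, 11 with loess, 10 with normexp and loess, 16 with loess and without the Cy6 array, 252 with the scanner's processed signals, 27 with the authors' table, 18, 1 and 0 at thresholds of 0.4, 0.6 and 1, 0 when each of the 8 arrays had to pass, and 6 to 37 with 1 replicate left out. For the 33 of the other direction it was 64, 21, 18, 15, 17 and 155 under the first 6 of these, 43 with the authors' table, 72, 19 and 1 at the thresholds, 1 with every array, 9 without the Cy6 array, and 33 to 264 with 1 replicate left out, where fewer values have to pass (264 without gill replicate 1, 130 without digestive gland replicate 2, 82 without gill replicate 2). Membership moved more than these counts: of the 33, 15 were kept with the processed signals, 13 with the authors' table, 29 and 20 with the offsets of 25 and 100, and 5 with loess. The cause was not tested.

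The level calls depended on scaling. Of the 33, 10 were called higher in digestive gland and 7 in gill. Of all probes 19.8% and 30.9% were. These became 30 and 1 with the array median, 21 and 4 with the 75th percentile, 31 and 0 without scaling, and 28 and 2 from the control channel alone, which the rule had used. With 1 replicate left out they were 5 to 19 and 2 to 13 (5 and 2 without digestive gland replicate 1, 6 and 2 without replicate 2, 19 and 6 without gill replicate 1, 11 and 13 without gill replicate 2). Of the 6, the number higher in digestive gland was 2, 1 and 2 under the first 3 of these and 0 to 1 with 1 replicate left out, and the number higher in gill was 0 without scaling and 3 to 6 with 1 replicate left out. The median of all probes was -0.06 with quantiles, -0.24 with the array median, -1.31 with the 75th percentile and 0.32 without scaling.

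The limma calls among the 39 in digestive gland were 8 to 36 with 1 replicate left out (10 without digestive gland replicate 1, 8 without replicate 2). Those in gill were 8 with the rule's processing (0.587% of all probes), 20 with the authors' table (5.44%), 26 with all arrays and the dye-swap pair as a block (7.95%), 4 without the Cy6 array (0.888%) and 0 to 1 with 1 replicate left out. Those of the difference were 6 to 29 with 1 replicate left out. A tissue left with 1 replicate is assumed to vary like the other.

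Replicate numbers are shared by the tissues, but nothing says that they pair animals, and there are only 2 pairs. The deviations of same-numbered replicates correlated at 0.47 for the rule's ratios, 0.162 after normexp and loess and 0.0738 for the levels. With the replicate number as a block the difference was called for 28 of the 39 in place of 26, and the level was called higher in digestive gland for 11 and in gill for 5 of the 33, and for 0 and 4 of the 6.

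With n = 2 pools per tissue, an exact permutation test of 2 against 2 cannot go below p = 0.333.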
